A study of Mus musculus with 10 samples.

Results

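The 10 genes described here encode netrin receptors (Dcc, Neo1, Unc5b and Unc5c), netrins (Ntn1 and Ntn4), Slit receptors (Robo1 and Robo2) and Slits (Slit1 and Slit2). They were measured on 10 Affymetrix arrays with cells sorted from mouse cortex by an EGFP reporter carried by astrocytes, the glial cells that surround synapses and vessels. By genotype, 5 arrays were labelled FMR1_KO and 5, the controls, wild-type. All 10 samples came from mice 8 weeks of age. FMRP, the Fmr1 product, binds mRNAs and holds back their translation. The promoter that drives EGFP, the Fmr1 allele and whether a sample pools animals are not stated in the sources used here, so the spread between arrays may be partly technical. Each gene was chosen by its symbol, with the probe set brightest over all 10 arrays, and each of the 10 has 1 probe set with that symbol alone, so brightness decided nothing. The 10 genes are among 22180 genes with a single symbol on the array. All 10 passed the filter on dim probe sets, which asked for a mean over the 10 arrays of at least 5.32 on the log2 scale and left 17712 genes. The genes were listed with earlier results of these arrays known, in which Dcc was 1 of the 10 higher genes of smallest p. The differences between the groups are therefore given as a description.

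Netrins and Slits are secreted proteins that steer growing axons and migrating cells. Dcc and its relative Neo1 bind netrins and, in axons, mediate attraction. Unc5 receptors mediate repulsion from netrins, and Robo receptors mediate repulsion from Slits. In the adult cortex the same molecules act at synapses, in glia and in vessel walls.

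The RNA of 3 receptor genes had the largest differences among the 10, all with higher means on the arrays labelled Fmr1 KO. Dcc read 7.43 ± 0.56 there and 6.59 ± 0.18 on controls, a 1.79-fold difference in signal. Robo1 read 8.18 ± 0.42 on KO-labelled arrays and 7.58 ± 0.32 on controls, or 1.51-fold. Neo1 read 8.69 ± 0.38 on KO-labelled arrays and 8.20 ± 0.29 on controls, or 1.40-fold (log2 signal, mean ± SD, n = 5 each). The ligands Ntn1, Ntn4, Slit1 and Slit2 differed by 0.14 or less on the log2 scale. None of the 10 genes passed the test across all genes (limma, two-sided, Benjamini-Hochberg adjusted p = 0.654 to 0.968). Over all genes, 0% of the 17712 passed it, with a smallest adjusted p of 0.654, while 1334 genes had an unadjusted p under 0.05.

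Fmr1 itself read 8.32, 8.38, 8.26, 8.15 and 8.01 on arrays 1 to 5 labelled Fmr1 KO, and 8.28, 7.60, 8.03, 8.17 and 8.10 on control arrays 1 to 5. The signal of the targeted gene was not lower in the arrays carrying its name. As the allele is not stated, whether its 1 probe set would show the disruption is unknown and was not tested. The groups are called by their labels throughout. Xist, the RNA of the silenced X chromosome in female cells, read 4.98 to 5.23 on the KO-labelled arrays, while control arrays 2 and 3 read 10.60 and 10.98 and the other controls 5.03 to 5.10. Correlations between arrays over the 17712 genes ran from 0.903 to 0.990, and genes are not independent replicates.

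The labelled cell type was checked with marker lists. All 19 astrocyte markers measured (Slc1a2, Aqp4, Aldh1l1 and others) passed the dim filter, and so did all 19 microglia markers (Cx3cr1, P2ry12, Csf1r and others). KO-labelled arrays 1 and 2 had astrocyte means of 11.08 and 11.13, the other KO-labelled arrays 10.18 to 10.40, control array 1 10.71 and the other controls 10.00 to 10.32. The microglia means were 9.85 and 9.26 for KO-labelled arrays 1 and 2 and 10.43 to 10.69 for arrays 3 to 5, against 10.00 for control array 1 and 10.80 to 11.00 for the other controls. Thus 3 arrays, KO-labelled 1 and 2 and control 1, were high in astrocyte and low in microglia signal. On all other arrays the microglia mean was above the astrocyte mean, although levels of different probe sets do not give the share of each cell type. All 19 astrocyte markers had a higher and all 19 microglia markers a lower mean on the KO-labelled arrays. An unadjusted p under 0.05 was found for 6 and 6 of them, 31.6% of either list. Over all genes, 46.8% had a higher mean, 4% such a p with a higher mean and 3.53% such a p with a lower mean. In bulk samples, fewer cells of a type and less RNA per cell cannot be told apart.

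Markers of other cell types that a sort could let through were read as well. The mean of the 14 neuron markers tested was 5.99 to 6.14 on the KO-labelled arrays and 6.02 to 6.22 on controls, with Neurod6, Nefl and Nefm below the dim filter. The mean of 10 oligodendrocyte precursor markers was 6.36 to 6.60 on KO-labelled arrays and 6.33 to 6.65 on controls, with Lhfpl3 below the filter. That of 8 oligodendrocyte markers was 6.46 to 6.82 on KO-labelled arrays and 6.42 to 6.69 on controls. For 11 endothelial markers it was 6.33 to 6.44 on KO-labelled arrays and 6.41 to 6.78 on controls, and for 11 pericyte and smooth muscle markers 6.99 to 7.21 on KO-labelled arrays and 6.78 to 7.24 on controls. The 7 choroid plexus markers averaged 8.13 to 9.41 on KO-labelled arrays and 8.53 to 9.56 on controls. The 12 early genes induced by dissociation averaged 8.41 to 10.08 on KO-labelled arrays and 9.18 to 10.47 on controls, with their lowest means on the same 3 arrays that were low in microglia markers. Means were lower on the KO-labelled arrays for 10 of the 11 endothelial markers, all 7 choroid plexus markers and 11 of the 12 early genes. An unadjusted p under 0.05 was found for 4 of the endothelial markers (Flt1, Cldn5, Emcn and Kdr), all lower, and for none of the choroid plexus markers or early genes. That is 36.4% of the endothelial list, beside 3.53% of all genes with such a p and a lower mean. The groups did not overlap for Emcn, at 5.70 to 5.85 on KO-labelled arrays and 5.87 to 6.22 on controls. Over all genes, 0.965% did not overlap. Of the 14 neuron markers 9 were lower, 2 of them (Stmn2 and Gad1) at an unadjusted p under 0.05, and Pdgfrb, of the pericyte list, was higher by 0.58 ± 0.24 (SE). No marker passed the test across all genes (limma adjusted p = 0.654 or higher). The part of any of these lists in the receptor differences was not tested. The fits with marker means given below used only the microglia and astrocyte lists.

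**Figure D1:**
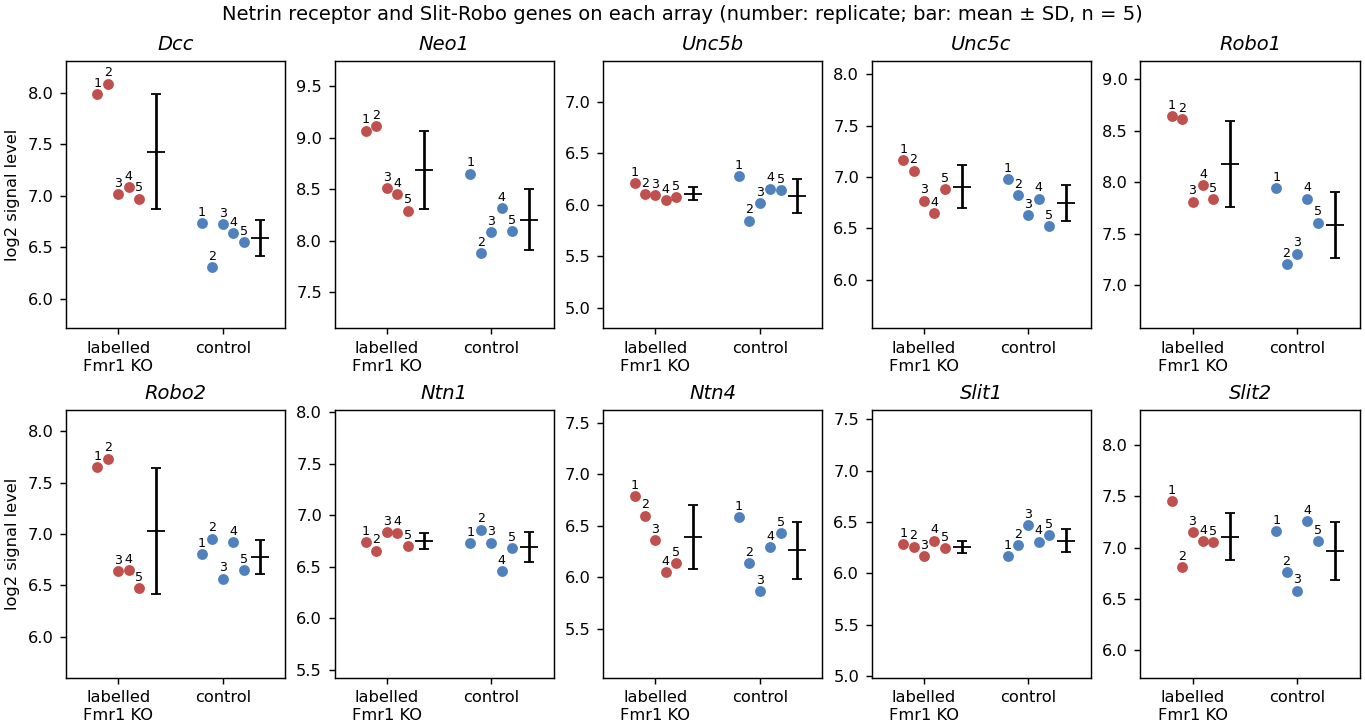
Log2 signal level of each of the 10 genes on every array, with the 5 arrays labelled Fmr1 KO in red at the left of each panel and the 5 controls in blue at the right. Numbers give the replicate and black bars the mean ± SD (n = 5). Dcc alone shows no overlap between the groups, with 6.97 as the lowest KO-labelled and 6.73 as the highest control level. KO-labelled arrays 1 and 2 stand above the other 3 for Dcc, Neo1, Robo1 and Robo2, and by smaller gaps for Unc5c, Ntn4 and Unc5b. Every panel spans the same log2 range.

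Among the receptors, Dcc, which couples netrin-1 to the actin skeleton of growth cones, read 7.99, 8.09, 7.02, 7.08 and 6.97 on KO-labelled arrays 1 to 5. It read 6.73, 6.31, 6.72, 6.64 and 6.55 on control arrays 1 to 5. All 5 KO-labelled arrays lay above the highest control, and arrays 1 and 2 lay far above the other 3. The fitted difference was 0.84 ± 0.22 (SE; 95% interval 0.36 to 1.33) on the log2 scale. Dcc is the only one of the 10 genes whose groups did not overlap. Over all genes, 0.965% did not overlap in either direction and 0.429% did not overlap with the KO-labelled arrays higher. Dcc was listed with its result known, so this count is a description.

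The Dcc difference was smaller, and of the same sign, without the 3 arrays with low microglia signal. It was then 0.47, with the 3 remaining KO-labelled arrays at 6.97 to 7.08 and the 4 remaining controls at 6.31 to 6.72. Leaving those arrays out did not even out the microglia signal. Its means were still 10.43 to 10.69 on the remaining KO-labelled arrays and 10.80 to 11.00 on the remaining controls. Control arrays 2 and 3, which were high in Xist, were among those controls. With the mean of the microglia markers as a covariate the Dcc difference was 0.49. With the astrocyte marker mean, a covariate chosen once the data were known, it was 0.47. Without control arrays 2 and 3, the Xist-high arrays, it was 0.79. The difference kept its sign under all 23 other settings run, in a range of 0.47 to 0.95, with an unadjusted p under 0.05 in 23 and an adjusted p under 0.05 in 0 of them (adjusted p = 0.208 or higher).

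Neo1, neogenin, binds netrins and repulsive guidance molecules. It read 9.07, 9.11, 8.51, 8.45 and 8.29 on KO-labelled arrays 1 to 5, against 8.65, 7.88, 8.08, 8.32 and 8.09 on control arrays 1 to 5. Only KO-labelled arrays 1 and 2 were above the highest control, which was array 1, so the groups overlapped. The difference was 0.48 ± 0.19 (SE; 95% interval 0.08 to 0.89). It was 0.33 without the 3 arrays of low microglia signal and 0.33 without control arrays 2 and 3. With the microglia mean as a covariate it was 0.17, and with the astrocyte mean 0.15.

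The repulsive netrin receptors differed less. Unc5b, which is known from endothelial cells of growing vessels, read 6.21, 6.11, 6.10, 6.04 and 6.07 on KO-labelled arrays 1 to 5 and 6.28, 5.85, 6.01, 6.16 and 6.14 on controls 1 to 5. The KO-labelled values lay inside the control range, and the difference was 0.02 ± 0.09 (SE; 95% interval -0.18 to 0.22). Unc5c, an Unc5 receptor of neurons, read 7.16, 7.06, 6.77, 6.65 and 6.88 on KO-labelled arrays 1 to 5 and 6.98, 6.83, 6.63, 6.79 and 6.52 on controls 1 to 5. KO-labelled arrays 1 and 2 were highest and the rest overlapped with controls, at a difference of 0.16 ± 0.12 (SE; 95% interval -0.10 to 0.41). These intervals do not show that either gene was unchanged.

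Robo1 and Robo2 are Slit receptors with closely related extracellular domains, and both genes lie on mouse chromosome 16. Robo1 read 8.64, 8.62, 7.81, 7.97 and 7.84 on KO-labelled arrays 1 to 5 and 7.94, 7.21, 7.31, 7.84 and 7.61 on control arrays 1 to 5. Arrays 1, 2 and 4 labelled Fmr1 KO were above the highest control, and all 5 were above the control mean. The difference was 0.59 ± 0.20 (SE; 95% interval 0.15 to 1.04). It was 0.38 without the 3 arrays of low microglia signal, 0.38 without control arrays 2 and 3, 0.28 with the microglia mean as a covariate and 0.25 with the astrocyte mean.

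Robo2 read 7.65, 7.73, 6.64, 6.65 and 6.47 on KO-labelled arrays 1 to 5 and 6.80, 6.95, 6.57, 6.92 and 6.65 on control arrays 1 to 5. Only KO-labelled arrays 1 and 2 were above the control range, while array 5 was below it and arrays 3 and 4 lay within it. The difference of 0.25 ± 0.24 (SE; 95% interval -0.27 to 0.77) was 0.08 when KO-labelled array 2 was left out and 0.10 when array 1 was. It was -0.18 without KO-labelled arrays 1 and 2 and control array 1, and -0.12 with either marker mean as a covariate. Whether Robo1 and Robo2 differed in their response was not tested.

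**Figure D2:**
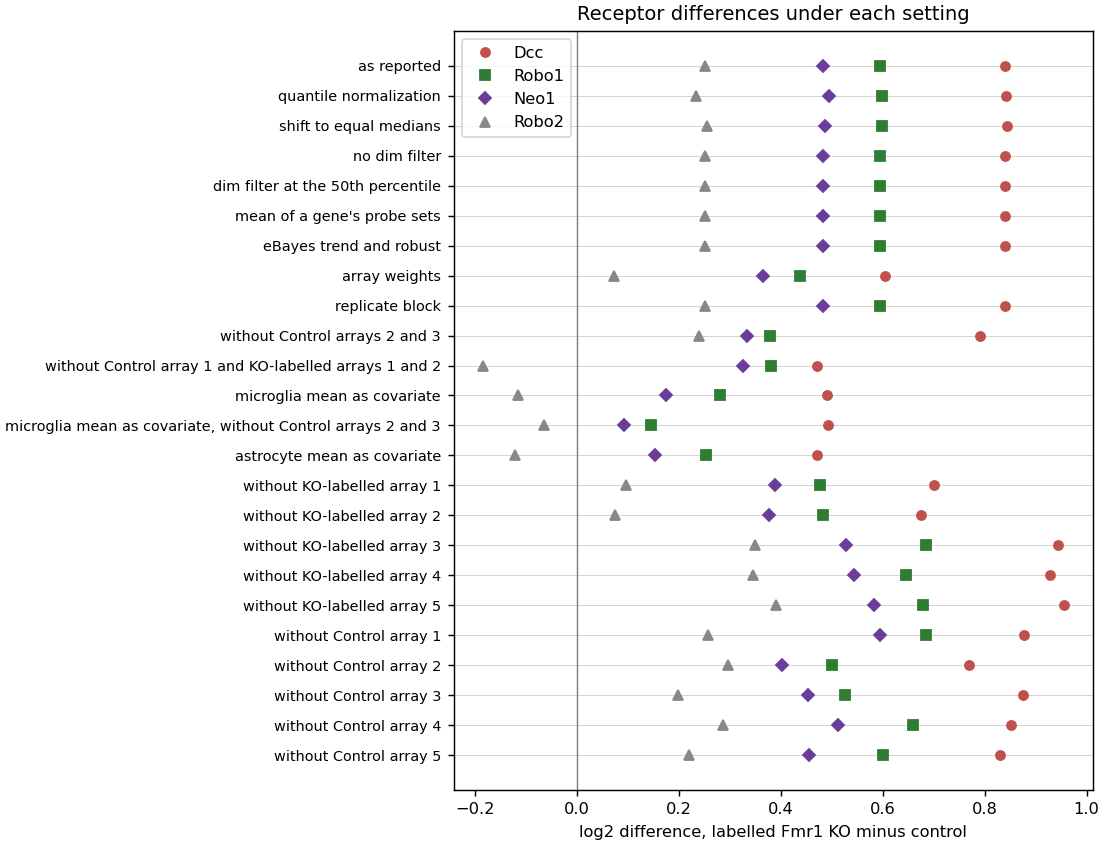
Difference in log2 signal, labelled Fmr1 KO minus control, of Dcc, Robo1, Neo1 and Robo2 (horizontal axis) in the reported fit and under each of 23 other settings (rows). Dcc stays between 0.47 and 0.95, Robo1 between 0.15 and 0.68 and Neo1 between 0.09 and 0.60, while Robo2 runs from -0.18 to 0.39.

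Of the ligand genes, Ntn1, Ntn4 and Slit2 had higher means on the KO-labelled arrays and Slit1 a lower one, and each interval included 0. Ntn1, the secreted netrin that Dcc binds, read 6.74, 6.66, 6.83, 6.83 and 6.70 on KO-labelled arrays 1 to 5 and 6.73, 6.86, 6.73, 6.46 and 6.68 on controls 1 to 5, with all KO-labelled levels inside the control range. Its difference was 0.06 ± 0.09 (SE; 95% interval -0.13 to 0.25). Ntn4, a netrin of basement membranes, read 6.79, 6.60, 6.36, 6.05 and 6.14 on KO-labelled arrays 1 to 5 and 6.58, 6.14, 5.86, 6.29 and 6.43 on controls 1 to 5. Its KO-labelled arrays 1 and 2 were just above the highest control, array 1, and the difference was 0.13 ± 0.16 (SE; 95% interval -0.23 to 0.49).

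Slit1, a Slit expressed in neurons, read 6.29, 6.26, 6.17, 6.32 and 6.24 on KO-labelled arrays 1 to 5 and 6.17, 6.27, 6.47, 6.31 and 6.37 on controls 1 to 5. All 5 KO-labelled levels were just below the control mean, at a difference of -0.06 ± 0.08 (SE; 95% interval -0.23 to 0.11). Slit2, a secreted repellent bound by both Robo receptors, read 7.45, 6.81, 7.15, 7.07 and 7.05 on KO-labelled arrays 1 to 5 and 7.16, 6.76, 6.58, 7.26 and 7.06 on controls 1 to 5. It was high on KO-labelled array 1 and low on array 2, unlike Dcc, Neo1, Robo1 and Robo2, which were high on both. The Slit2 difference was 0.14 ± 0.15 (SE; 95% interval -0.18 to 0.46).

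The Slit genes also carry a microRNA known to repress Robo1 and Robo2, miR-218, which is shown because it ties both arms of the pathway. This gene was added after the values were seen. RefSeq (GRCm38.p6) places Mir218-1 within the bounds of Slit2 (mature form at chr5:48223966-48223986, plus strand) and Mir218-2 within those of Slit3 (chr11:35616840-35616860, plus strand). Both give the same mature sequence, with the seed, bases 2 to 8, in capitals.
mmu-miR-218-5p: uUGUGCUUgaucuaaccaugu
The probe set named Mir218-1 read 5.35 ± 0.14 on KO-labelled arrays and 5.42 ± 0.18 on controls (SD, n = 5 each), and that of Mir218-2, at 5.17 ± 0.10 on KO-labelled arrays and 5.21 ± 0.15 on controls, was below the dim filter. Both lie at the low end of the array's range, and array signal at such a locus does not measure the mature form.

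**Figure D3:**
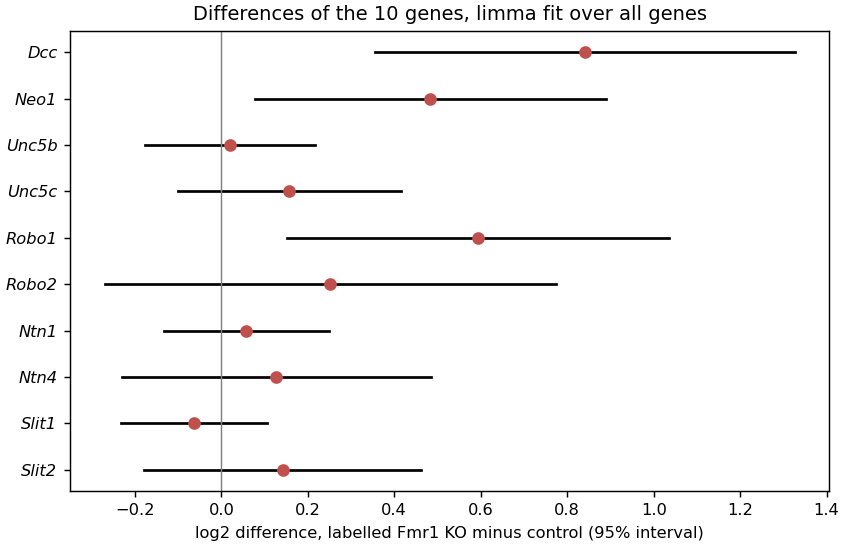
Difference in log2 signal (horizontal axis), KO-labelled mean minus control mean (n = 5 each), for each of the 10 genes. Points are limma estimates and lines 95% intervals. The intervals of Dcc (0.36 to 1.33), Robo1 (0.15 to 1.04) and Neo1 (0.08 to 0.89) lie above 0 before adjustment for the 17712 genes tested, and the other 7 include 0.

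As a group, 9 of the 10 genes had a higher mean on the KO-labelled arrays, where 46.8% of all genes did. Dcc, Robo1 and Neo1, 3 of the 10 and all higher, had an unadjusted p under 0.05, as did 7.53% of all genes, 4% higher and 3.53% lower. The median difference of the 10 genes was 0.15, against -0.010 over all 17712 genes. The members were listed with these values known, so the counts are no independent evidence. The median was 0.035 with the microglia mean as a covariate and 0.039 with the astrocyte mean. It was -0.0041 with the microglia mean when control arrays 2 and 3 were left out as well. The count at an unadjusted p under 0.05 was 1, Dcc, with the microglia mean as a covariate and 1, Dcc, without control arrays 2 and 3. It was 2, Dcc and Robo1, with the astrocyte mean. The same 2 were left when KO-labelled array 1 or 2 or control array 2 or 3 was left out singly. Of the 23 other settings, Neo1 had such a p in 15 and Robo1 in 20.

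The 10 genes did not all vary alike across the arrays. Likeness was measured as the root mean square difference between 2 genes' levels, each centred on its own mean over the 10 arrays, which describes these arrays and is small for any pair of genes that vary little. Of the 45 pairs of members, Neo1 and Robo1 were closest, at 0.122, although each varied over the arrays by an SD of 0.41 and 0.47. Dcc lay 0.228 from Robo1, 0.254 from Neo1 and 0.353 from Robo2, while its SD over the 10 arrays was 0.59. The measure also grows where 2 genes rise and fall together by different amounts. Ntn1 and Slit1 each correlated negatively with Dcc, Neo1 and Robo1 over the arrays (Pearson r = -0.41 to -0.056). Among the receptors, r was 0.97 for Neo1 and Robo1 and 0.92 for Dcc with either. It was 0.76 to 0.78 for Robo2 with Dcc, Neo1 or Robo1. The astrocyte marker mean shared the high values of KO-labelled arrays 1 and 2 with these receptors, at 0.65 and 0.70 above its own mean. Dcc was 0.98 and 1.08 above its mean on those arrays. On control array 1, where the astrocyte mean was 0.28 above, Neo1 was 0.21 and Robo1 0.06 above their means. Dcc was 0.28 and Robo2 0.10 below theirs on that array.

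**Figure D4:**
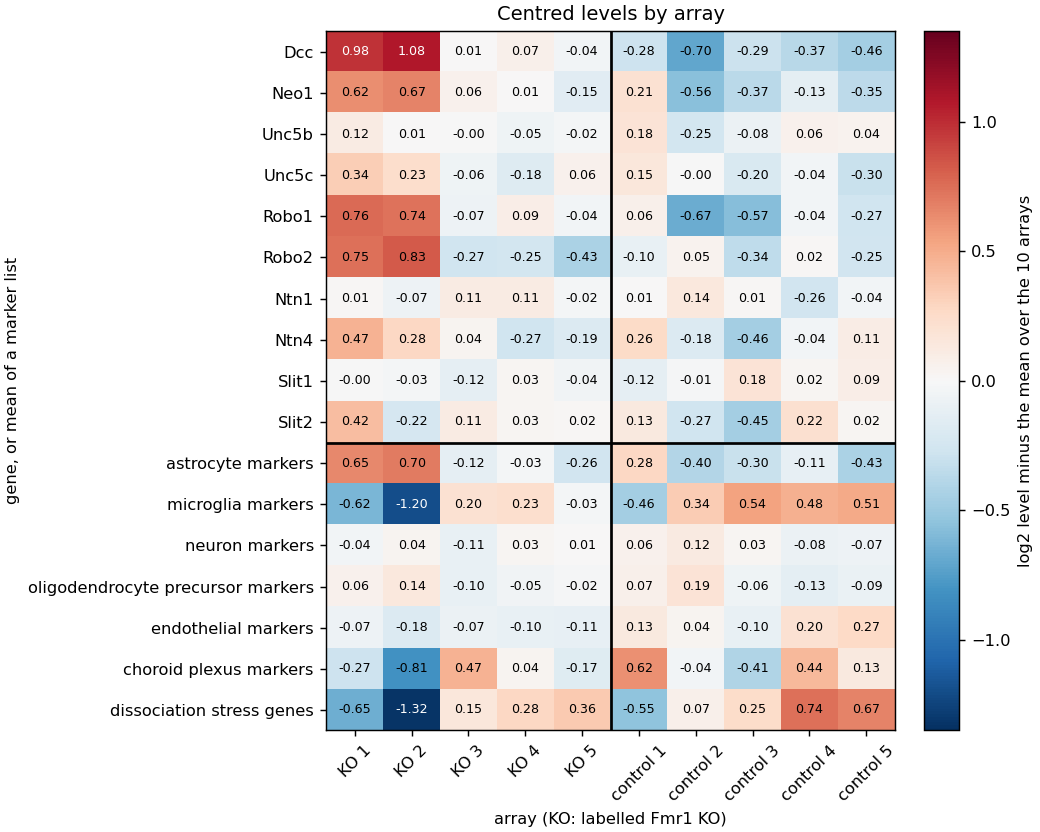
Log2 level minus the mean over the 10 arrays, for the 10 genes (upper rows) and the means of 7 marker lists (lower rows), on the 5 arrays labelled Fmr1 KO (left) and the 5 controls (right). Red is above and blue below the row's mean. Dcc, Neo1, Robo1 and Robo2 are 0.62 to 1.08 above their means on KO-labelled arrays 1 and 2, where microglia markers are 0.62 and 1.20 below theirs. Neuron markers stay within 0.13 of their mean on every array.

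Over all 17712 genes, those nearest to Dcc across the 10 arrays were Akap6 at 0.141, Cdh20 at 0.149 and Eya1 at 0.173. Nearest to Robo1 were Aldoc at 0.079, itself in the list of astrocyte markers, Farp1 at 0.091 and Psd3 at 0.097. Nearest to Neo1 were Lrp4 at 0.051, Ahcyl1 at 0.055 and Efr3b at 0.063. Nearest to Robo2 were Gas1 at 0.097, Triqk at 0.099 and Hsd11b1 at 0.110. The lists of the 4 receptors shared no gene. With so few of the 17712 genes listed for each, this does not show that the receptors varied differently. The measure also sets apart genes that rise and fall together by different amounts. Akap6, which anchors protein kinase A, read 7.86 ± 0.41 on KO-labelled arrays and 7.15 ± 0.23 on controls, a difference of 0.72 ± 0.18 (SE). Lrp4, a receptor of the low-density lipoprotein receptor family, read 8.84 ± 0.31 on KO-labelled arrays and 8.34 ± 0.32 on controls (SD, n = 5 each).

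The sequences before an annotated start of Neo1 and Robo1, the closest pair, are shown with that of Robo2, the other Slit receptor listed. RefSeq's table (GRCm38.p6) holds promoter windows for 7 of the 10 genes. The 250 bases before an annotated start are printed in the direction of the gene, with CG dinucleotides in capitals. The Neo1 window is chr9:59036442-59036691 on the minus strand, the Robo1 window chr16:72662899-72663148 on the plus strand, and the Robo2 window, the farthest upstream of 3 listed, chr16:75447294-75447543 on the minus strand. The Robo1 window lies wholly inside the outer bounds of its gene, so it precedes a start within the gene. The Neo1 and Robo2 windows lie partly inside the bounds of theirs.
Neo1: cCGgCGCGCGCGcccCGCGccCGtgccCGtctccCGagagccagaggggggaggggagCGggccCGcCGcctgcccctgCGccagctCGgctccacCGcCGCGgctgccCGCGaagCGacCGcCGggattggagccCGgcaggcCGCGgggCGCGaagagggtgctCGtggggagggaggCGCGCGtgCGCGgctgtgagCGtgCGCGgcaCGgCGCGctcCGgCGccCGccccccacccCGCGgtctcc
Robo1: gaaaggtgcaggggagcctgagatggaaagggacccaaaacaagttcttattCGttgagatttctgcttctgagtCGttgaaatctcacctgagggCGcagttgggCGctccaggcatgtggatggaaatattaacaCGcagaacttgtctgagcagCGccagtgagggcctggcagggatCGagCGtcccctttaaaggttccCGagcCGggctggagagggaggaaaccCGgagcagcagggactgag
Robo2: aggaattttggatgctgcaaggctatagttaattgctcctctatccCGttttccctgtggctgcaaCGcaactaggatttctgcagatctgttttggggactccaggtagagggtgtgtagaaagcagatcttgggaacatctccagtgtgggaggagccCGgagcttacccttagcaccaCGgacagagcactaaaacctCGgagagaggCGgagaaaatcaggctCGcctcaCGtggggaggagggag
The Neo1 window holds 45 CG dinucleotides and 83.2% G or C, more CG than 99.6% of the 32851 windows in the table, whose median is 6. The Robo1 window holds 11 (56.0% G or C) and the printed Robo2 window 8 (53.2%). The Robo2 windows not printed hold 4 (44.8%) and 14 (65.6%). On either strand, TATAAA was in none of the 3 printed windows, against 12.4% of all windows. CCAAT was in the Neo1 window (33.8% of all), and CACGTG in the printed Robo2 window (6.02% of all). Such matches describe the letters in these windows only.

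Other members of the netrin, Slit and repulsive guidance families were read as a list. Of 19 listed, 17 had a probe set with a single symbol and 13 passed the dim filter. Means were higher for 6 of these and lower for 7, and the median difference was -0.032. An unadjusted p under 0.05 was found for 1 gene, Flrt1, which was higher (7.69% of the 13, beside 4% of all genes). It did not have such a p without KO-labelled array 1 or 2 or control array 2, or with either marker mean as a covariate. Flrt1, of a family of adhesion proteins that includes Unc5 ligands, read 7.96 ± 0.44 on KO-labelled arrays and 7.45 ± 0.26 on controls (SD, n = 5 each). Its difference was 0.51 ± 0.20 (SE). Ntng2, a membrane-anchored netrin relative, differed by 0.18 ± 0.13, and Flrt3 by 0.048 ± 0.11. Rgmb, a repulsive guidance molecule that binds Neo1, read 8.08 ± 0.38 on KO-labelled arrays and 8.46 ± 0.33 on controls and differed by -0.39 ± 0.19. Robo4, the Robo of endothelial cells, differed by -0.16 ± 0.09 and the netrin receptor Unc5a by -0.081 ± 0.085. The adjusted p was 0.654 or higher for each.

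The intracellular partners of these receptors, 30 tested of 32 listed, had 13 higher and 17 lower means and a median of -0.028. An unadjusted p under 0.05 was found for 5 higher (16.7% of the list) and 2 lower genes (6.67%), beside 4% and 3.53% of all genes. The 5 higher genes became 1 when KO-labelled array 1 or 2 or control array 2 or 3 was left out. They became 3 without control array 4 or 5. Without KO-labelled array 3 there were 6, and without KO-labelled array 4 or 5 or control array 1 there were 7. They became 0 without both control arrays 2 and 3 or with the astrocyte mean as a covariate, and 2 with the microglia mean. The 2 lower genes became 4 without control array 1, and 1 with either marker mean as a covariate. Trim9, a ubiquitin ligase that binds Dcc, read 10.12 ± 0.40 on KO-labelled arrays and 9.58 ± 0.36 on controls (SD, n = 5 each), a difference of 0.54 ± 0.21 (SE). Srgap3, a GTPase-activating protein that binds Robo receptors, read 9.17 ± 0.37 on KO-labelled arrays and 8.65 ± 0.33 on controls, a difference of 0.52 ± 0.19. Dock1, an exchange factor for Rac downstream of Dcc, differed by 0.29 ± 0.12. On the lower side, Cdc42, which acts on the actin skeleton, read 10.35 ± 0.14 on KO-labelled arrays and 10.71 ± 0.14 on controls (SD, n = 5 each). Its difference of -0.36 ± 0.10 (SE) had the smallest unadjusted p of the 30, 0.0027, and 4 of the 5 KO-labelled arrays were below the lowest control. The actin regulator Vasp differed by -0.36 ± 0.13 and Rac1 by -0.22 ± 0.12. None passed the test across all genes (limma adjusted p = 0.654 or higher), and the groups overlapped for all 30.

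The groups and families above were set beside a list of semaphorins, plexins and neuropilins, another guidance system, whose 30 tested genes had a median of -0.054.

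**Figure D5:**
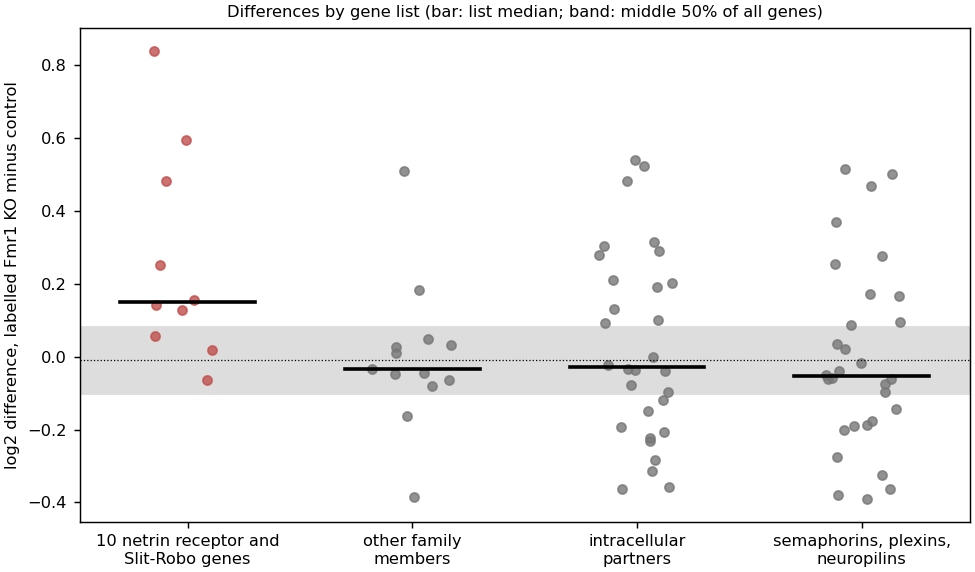
Difference in log2 signal, labelled Fmr1 KO minus control, of every tested gene in 4 lists (points), with each list's median as a bar. The grey band holds the middle 50% of all 17712 genes, -0.10 to 0.08. The 10 genes have a median of 0.15, and the other lists have medians of -0.032, -0.028 and -0.054. The 10 genes were listed with their values known.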

How the data were processed

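Per the labels' protocols, RNA of the sorted cells was amplified with the Affymetrix WT cDNA kit, and the product was fragmented and given biotin. The authors deposited 1 signal level per probe set and array on what the values (4.31 to 13.9) show to be a log2 scale. The array medians were 6.14, 6.15, 6.14, 6.17 and 6.20 on KO-labelled arrays 1 to 5 and 6.16, 6.24, 6.17, 6.11 and 6.13 on controls 1 to 5, with no centring per probe set. The groups were compared by the authors in Genespring 13.1.1, per the series' design text. How background, normalization and summary were handled is not given in the sources used here.

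Of the 33793 probe sets, the platform annotation gives 1 gene symbol for 23521, several for 1814 and none for 8458. Only those with 1 were used, the brightest over all arrays for each gene. A gene table for GRCm38.p6 held the gene ID of 23328 of them, with 0 under another symbol. The filter on dim probe sets took out means under the 25th percentile (5.32). Differences, KO-labelled minus control, were fitted in limma 3.58.1 (lmFit, then eBayes; R 4.3.3), with Benjamini-Hochberg adjustment over 17712 genes and a threshold of 0.05. The fit was tested on simulated data with independent noise per gene. Arrays that stand apart over many genes at once, as some do here, were not simulated. The members, gene lists, tests and most alternatives were chosen with earlier results of these data known. All 10 members are named. From each pathway list the 3 genes per direction with the smallest p are named, and for the 4 members with the largest SD the 3 nearest genes, leaving out predicted genes and olfactory and vomeronasal receptors. The number of arrays limits the precision.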

Additional observations from a re-analysis of the deposited data

Results flagged for a closer look

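In 5 cases an array stood apart from the other 4 of its group by a gap larger than Dixon's 95% critical value, among 78 groups of 5 looked at, where chance flags about 1 in 20. All 5 were on control array 1, and none concerned the 10 genes. The mean of the microglia markers was 10.00 on that array, against 10.80 to 11.00 on the other controls. Flrt1 read 7.90 there and 7.22 to 7.41 on the other controls, Trim9 read 10.23 and 9.39 to 9.45, and Plxnb1 read 9.95 and 8.59 to 8.96. Rac1 was low there, at 10.05 against 10.42 to 10.49. The fits without control array 1 are given with the other settings.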

How the results depend on the processing

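Beside the reported fit, 23 other settings were run, 10 of them leaving out 1 array each. None of the 10 genes passed the adjusted threshold in any (smallest limma adjusted p = 0.208, Dcc without control array 1), and 210 of 229 values kept their direction. Dcc, Neo1, Robo1 and Slit1 kept it in all. The others changed sign under some settings. Without control arrays 2 and 3, Ntn4 was -0.045, Slit2 -0.054 and Unc5b -0.086. With the microglia mean as a covariate, Ntn4 was -0.097, Robo2 -0.12, Unc5b -0.040 and Unc5c -0.014, and with those arrays left out as well, Ntn4 was -0.20, Robo2 -0.064, Slit2 -0.024 and Unc5b -0.12. With the astrocyte mean, added after the data were seen, Ntn4 was -0.092, Robo2 -0.12 and Unc5b -0.054. Robo2 was -0.18 without control array 1 and KO-labelled arrays 1 and 2, and Unc5b was -0.018 with array weights. Leaving out 1 array, Unc5b ran from -0.041 to 0.068 and Ntn1 from -0.00044 to 0.10. The cause was not tested.

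The count of genes called was 0 in the reported fit, where 1334 had an unadjusted p under 0.05, 3 of them members. It was 1 without control array 5 (Cnbd2, -0.74) and 1 without control array 1 and KO-labelled arrays 1 and 2 (Tlcd1, 2.06), so it ran from 0 to 1 with 1 array left out. The members' median ran from 0.077 to 0.22 with 1 array left out; it turned to -0.0041 when control arrays 2 and 3 were dropped and the microglia mean entered the fit. The median of the other family members ran from -0.050 to 0.0032 with 1 array left out and was 0.0074 without control arrays 2 and 3. That of the intracellular partners was 0.057 with the microglia mean and 0.045 with the astrocyte mean as a covariate. The replicate numbers were not taken to pair the arrays, since deviations of same-numbered arrays correlated at -0.015 to 0.53, and 1 of 5 KO-labelled arrays was most like its own number. With the replicate number as a block, the Dcc difference was 0.84 (adjusted p = 0.320), 0 genes were called, and 1006 higher and 1074 lower genes had an unadjusted p under 0.05. Unc5b was below the stricter dim filter at the 50th percentile and has no value there.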

Other observations

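Semaphorins, plexins and neuropilins, another system of guidance ligands and receptors, served as a comparison list. Of 31 listed, 30 were tested, with 12 higher and 18 lower means on the KO-labelled arrays and a median of -0.054. An unadjusted p under 0.05 was found for 2 higher (6.67% of the list) and 1 lower gene (3.33%), beside 4% and 3.53% of all genes. These counts ran from 1 to 5 and from 0 to 4 with 1 array left out, and 0 passed the test across all genes (limma adjusted p = 0.654 or higher). Sema6d, a transmembrane semaphorin, read 9.44 ± 0.34 on KO-labelled arrays and 8.93 ± 0.30 on controls (SD, n = 5 each), a difference of 0.52 ± 0.18 (SE). Sema4a differed by 0.50 ± 0.22 and the plexin Plxnb1, a receptor for class 4 semaphorins, by 0.47 ± 0.24. On the lower side Sema6b differed by -0.20 ± 0.09, Sema4c by -0.39 ± 0.18 and Plxnb3 by -0.19 ± 0.09. The groups overlapped for all 30 genes.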
